A study of Mus musculus with 2 samples.

Results

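The Ikaros family of zinc finger transcription factors has 5 genes in the mouse, Ikzf1 (Ikaros), Ikzf2 (Helios), Ikzf3 (Aiolos), Ikzf4 (Eos) and Ikzf5 (Pegasus). All 5 were found by symbol among the 34745 genes of a count table from the gastrocnemius, a calf muscle. The table holds 2 RNA-seq libraries from C57BL/6 mice aged 8 weeks, 1 of genotype Cry2flox/flox (Cry2flox) and the other labelled Cry2scko. The targeted gene, Cry2, encodes cryptochrome 2, which represses circadian clock genes. Floxed alleles carry sites at which a recombinase can remove part of the gene. The labels give neither the meaning of scko nor the recombinase, and they do not say whether a library came from 1 animal or from a pool. The family was chosen by its counts and FPKM values in these 2 libraries, in which Ikzf2 is low in Cry2scko, so the members' values are a description and carry no test.

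Ikaros proteins bind DNA through a cluster of zinc fingers near the N-terminus and pair with themselves and each other through a second cluster at the C-terminus. They recruit chromatin remodelling and corepressor complexes, the NuRD complex among them, to genes of developing and mature lymphocytes. Ikaros is needed for the lymphoid lineages, Aiolos is most abundant in maturing B cells, and Helios and Eos are known from regulatory T cells. Pegasus is the most distant relative and is expressed in many tissues.

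The coding sequence of 1 DNA-binding finger of each member shows how the family is related, and which parts of it a sequencing read can tell apart. The sequences come from the GENCODE M21 transcripts (GRCm38), are read 5′ to 3′ on the coding strand, and carry in capitals the codons of the 2 cysteines and 2 histidines that hold the zinc. For each member the finger most like the second finger of Ikzf2 is shown.
Ikzf1: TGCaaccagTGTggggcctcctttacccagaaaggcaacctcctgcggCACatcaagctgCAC
Ikzf2: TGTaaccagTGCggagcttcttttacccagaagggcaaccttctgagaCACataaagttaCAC
Ikzf3: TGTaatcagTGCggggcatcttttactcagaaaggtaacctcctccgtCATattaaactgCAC
Ikzf4: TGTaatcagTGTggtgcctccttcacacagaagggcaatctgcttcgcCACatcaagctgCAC
Ikzf5: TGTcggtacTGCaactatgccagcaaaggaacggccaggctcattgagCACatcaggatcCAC

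The Ikzf2 finger lies in exon 5 of its transcript at chr1:69570581-69570643 (minus strand), and the Ikzf1 finger in exon 6 at chr11:11754024-11754086 (plus strand). The fingers of Ikzf3 (chr11:98488940-98489002), Ikzf4 (chr10:128640229-128640291) and Ikzf5 (chr7:131393759-131393821) are on the minus strand. Ikzf1, Ikzf3 and Ikzf4 encode the same 21 residues as Ikzf2 in this finger. Their DNA nevertheless matched that of Ikzf2 at 51, 48 and 48 of the 63 bases. The finger of Ikzf5 matched at 6 of the 21 residues and 29 of the 63 bases. Over the whole protein, identity to Ikzf2 was 57.2% for Ikzf1, 54.7% for Ikzf4, 51.7% for Ikzf3 and 32.5% for Ikzf5, counted over aligned residues. No run of 50 bases was shared between the annotated transcripts of any pair of members (0 shared runs for each gene), so a uniquely matching read of that length belongs to 1 member.

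**Figure D1:**
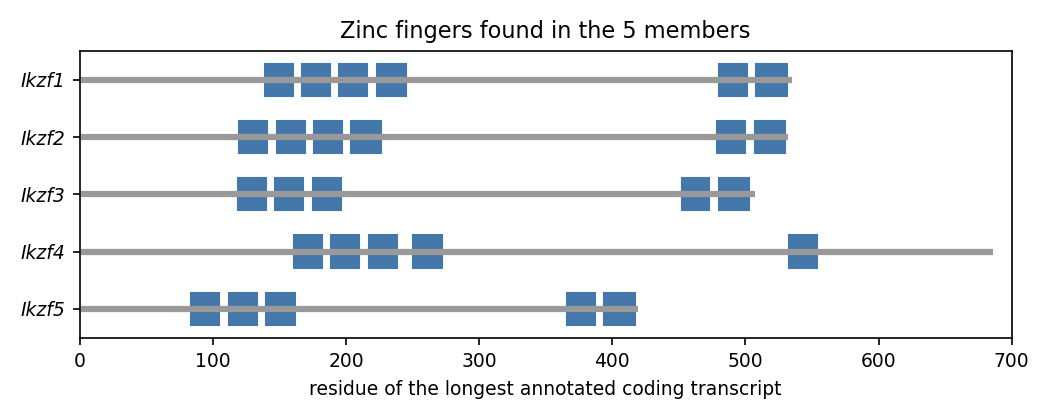
Position of zinc fingers (blue boxes, to scale in residues) along the longest annotated coding product of each Ikaros family gene (grey line). Ikzf1 and Ikzf2 have 6 fingers and the others 5 by the pattern searched, with a group of 3 or 4 toward the N-terminus and the rest near the C-terminus, except that Ikzf4 has 1 finger well inside its long product.

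The pattern searched was a cysteine, 2 residues, a cysteine, 12 residues, a histidine, 3 to 5 residues and a histidine. It found 6 fingers in Ikzf1 (535 residues) and in Ikzf2 (532 residues), and 5 in Ikzf3 (507), Ikzf4 (686) and Ikzf5 (419). A finger with other spacing or another zinc ligand is not found by this pattern.

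Counts summed to 18909433 reads for the Cry2flox library and 16423884 for the Cry2scko library. With 1 library per genotype there was no replicate, so differences between animals could not be estimated and no p-value was computed. Ratios are Cry2scko over Cry2flox on counts scaled by TMM (the trimmed mean of M-values, a scaling factor per library), and CPM are counts scaled to the library's depth after that factor. Intervals are exact 95% intervals that cover counting error only, and since reads carried no molecular identifiers they may understate even that. To be called higher or lower, a gene needed 1 CPM or more on average, a ratio of at least 2-fold and an interval that excluded a ratio of 1. By that rule 4.88% of 12832 tested genes were called, 3.37% higher and 1.51% lower. The targeted gene went the way of the labels: Cry2 counts were 676 for Cry2flox against 133 for Cry2scko, which is 4.46-fold lower (3.71 to 5.43), though some of its exon bases are shared with another annotated gene. The 10 muscle fibre genes checked against the tissue label, Myh4 and Ckm among them, had between 4180 and 50460 CPM in either library, and 0 of the 10 were called.

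Of the 5 members 4 could be tested, 1 was lower (Ikzf2), 1 higher (Ikzf3) and 2 neither (Ikzf1 and Ikzf5), beside the 4.88% of all tested genes that were called. This contrast was used to choose the members, so nothing is read from that share. Ikzf4 had a mean of 0.826 CPM, below the minimum for a call. Summed over the family there were 727 reads (38.7 CPM) in Cry2flox and 705 reads (42.6 CPM) in Cry2scko, a log2 ratio of 0.14 (-0.01 to 0.29). Ikzf5 gave 391 and 372 of these, which may include reads of Pstk, a gene that overlaps it on the other strand. Ikzf2 and Ikzf3 went opposite ways within that sum. Without Ikzf2 the other 4 members had 532 and 676 reads (28.3 and 40.9 CPM), a log2 ratio of 0.53 (0.36 to 0.70). Leaving out the member known to be low raises this value by construction. Ikzf3 gave 64 and 225 of these reads, and the intervals of the other 3 members each held a ratio of 1.

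**Figure D2:**
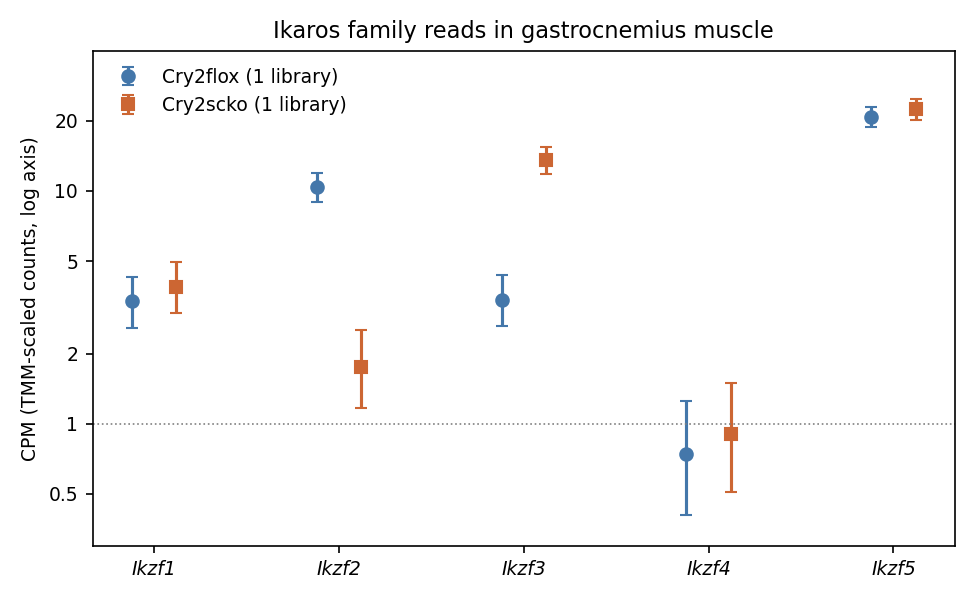
CPM (TMM-scaled counts, log axis) of the 5 members in the Cry2flox library (circles) and the Cry2scko library (squares), with exact 95% Poisson intervals for counting error; the dotted line marks 1 CPM. Ikzf2 lies at 10.4 and 1.75 CPM and Ikzf3 at 3.41 and 13.6 CPM, while the intervals of the libraries overlap for Ikzf1, Ikzf4 and Ikzf5.

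Ikzf2 (ENSMUSG00000025997, GRCm38 chromosome 1, 69531214 to 69687245, minus strand) encodes Helios, a partner of Ikaros. The Cry2flox library held 195 of its reads, a level of 10.4 CPM (8.98 to 11.9). The Cry2scko library held 29, a level of 1.75 CPM (1.17 to 2.52). The intervals of the 2 libraries were far apart, and the Cry2flox library held the high value. The log2 ratio was -2.55 (-3.18 to -2.00), a 5.84-fold lower level, and 16 of the 12832 tested genes had a lower ratio. The annotated antisense gene Gm29114 shares 144 exon bases with Ikzf2, and Gm29112 and Gm28112 lie within its introns. All 3 had 0 reads in both libraries. Of the 11844 distinct runs of 50 bases in Ikzf2 transcripts, 0.819% occur in transcripts of another gene, and that gene was Gm29114. The count pools 7 annotated coding transcripts, so which of them the reads came from is not given by these files.

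Ikzf3 (ENSMUSG00000018168, chromosome 11, 98464902 to 98546031, minus strand) encodes Aiolos, a factor of B cell maturation. Its 64 reads in Cry2flox gave 3.41 CPM (2.62 to 4.35). Its 225 reads in Cry2scko gave 13.6 CPM (11.9 to 15.5). The order of the libraries was opposite to that for Ikzf2, again with intervals that did not overlap. The log2 ratio was 1.99 (1.59 to 2.42), a 3.97-fold higher level, and 54 of the 12832 tested genes had a higher ratio. Ikzf3 shares no exon base with another annotated gene, and 0 of its runs of 50 bases occur in transcripts of other genes. In whole muscle, more cells of a type and more RNA per cell cannot be told apart, and this holds for each member and each list described here.

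Ikzf1 (ENSMUSG00000018654, chromosome 11, 11685003 to 11772926, plus strand) encodes Ikaros, the founding member, which all lymphoid lineages use. The libraries held nearly equal counts, 63 reads at 3.36 CPM (2.58 to 4.29) for Cry2flox and 64 at 3.87 CPM (2.98 to 4.94) for Cry2scko. The libraries overlapped in their counting intervals, and the log2 ratio was 0.21 (-0.32 to 0.73). At this depth a difference of up to 1.66-fold higher or 1.25-fold lower lies inside the interval, so a smaller difference was not detectable. Its antisense neighbours Gm11999 and Gm12000 had 0 reads in both libraries.

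Ikzf4 (ENSMUSG00000002578, chromosome 10, 128630843 to 128645991, minus strand) encodes Eos, known as a partner of Foxp3 in regulatory T cells. It was the rarest member, at 14 reads (0.746 CPM) for Cry2flox and 15 (0.907 CPM) for Cry2scko. Its log2 ratio of 0.28 had an interval from -0.87 to 1.44, which holds a 2-fold higher level as well as a lower one. A lincRNA gene on the other strand, Gm26876, shares 37 exon bases with it and had 0 and 3 reads. Rps26, a ribosomal protein gene 4096 bases away, had a log2 ratio of -0.05 on 916 and 781 reads.

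Ikzf5 (ENSMUSG00000040167, chromosome 7, 131388652 to 131410521, minus strand) encodes Pegasus, the widely expressed relative, and had the most reads. These were 391 for Cry2flox, at 20.8 CPM (18.8 to 23.0), and 372 for Cry2scko, at 22.5 CPM (20.3 to 24.9). The intervals overlapped, and the log2 ratio was 0.11 (-0.10 to 0.32). Most of the exon sequence of Ikzf5 is shared with a gene on the other strand. Pstk, which encodes the kinase of seryl-tRNA used in selenocysteine synthesis, shares 4652 of the 5721 merged exon bases of Ikzf5, and 81.4% of the 50-base runs of Ikzf5 occur in transcripts of other genes. Pstk had 322 and 335 reads and a log2 ratio of 0.24 (0.02 to 0.47). Strand use in the counting is not given in the sources used here, so the Ikzf5 count cannot be told apart from reads of Pstk.

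**Figure D3:**
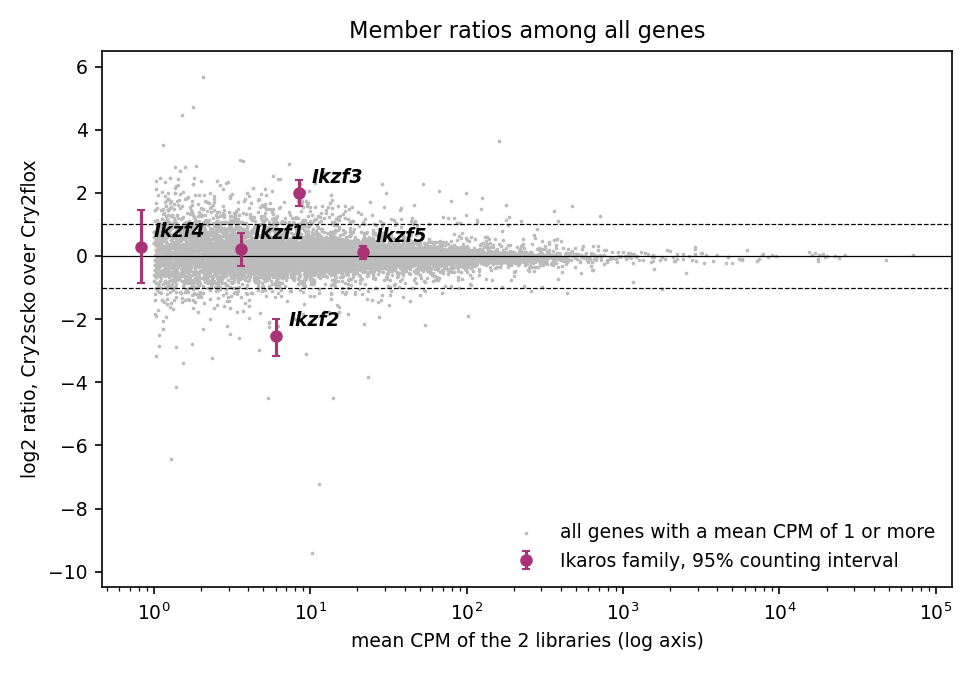
Log2 ratio of Cry2scko over Cry2flox against the mean CPM (log axis) for the 12832 tested genes (grey) and for the 5 members (with 95% counting intervals); dashed lines mark 2-fold. Ikzf2 at -2.55 and Ikzf3 at 1.99 lie at opposite edges of the cloud, Ikzf1 and Ikzf5 lie inside it, and Ikzf4 lies to its left, below 1 CPM.

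Ratios of members within a library do not depend on how the libraries are scaled. There were 0.328 reads of Ikzf3 for each read of Ikzf2 in Cry2flox (0.243 to 0.437) and 7.76 in Cry2scko (5.26 to 11.9), a 23.6-fold difference. Relative to Ikzf1, Ikzf3 had 1.02 reads per read in Cry2flox (0.706 to 1.46) and 3.52 in Cry2scko (2.65 to 4.72). Relative to Ikzf5, Ikzf2 went from 0.499 reads per read in Cry2flox to 0.0780 in Cry2scko. Ikzf1 had 0.161 reads per read of Ikzf5 in Cry2flox (0.121 to 0.211) and 0.172 in Cry2scko (0.130 to 0.225). Both ratios to Ikzf5 may include reads of Pstk in the Ikzf5 count.

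Levels of different genes can be compared only per length. In deposited FPKM (values scaled for gene length and library depth), Cry2flox had Ikzf5 at 2.94, Ikzf2 at 0.596, Ikzf3 at 0.356, Ikzf1 at 0.307 and Ikzf4 at 0.0628. Cry2scko had Ikzf5 at 3.22, Ikzf3 at 1.44, Ikzf1 at 0.359, Ikzf2 at 0.102 and Ikzf4 at 0.0775. Ikzf2 was thus the second member in Cry2flox and the fourth in Cry2scko. Ikzf3 and Ikzf1 in Cry2flox did not differ beyond counting error (level ratio 1.16, 0.805 to 1.67), nor did Ikzf2 and Ikzf4 in Cry2scko (1.32, 0.684 to 2.65). The other neighbours in these orders differed beyond it, though the Ikzf5 values may include reads of Pstk.

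The order depends in part on the gene length behind the FPKM. The length that counts and FPKM imply was 10847 bases for Ikzf1, 17291 for Ikzf2, 9510 for Ikzf3 and 11788 for Ikzf4. These are the sums of all distinct annotated exons of each gene, in which overlapping exons of different transcripts count more than once. The merged exons, in which each base counts once, span 5777, 11613, 8754 and 5995 bases. The same sum was met within 0.5% by 68.0% of the tested genes, while 9.55% met the merged length, though the implied length of Ikzf5 (7025 bases) met neither its sum of distinct exons (9672) nor its merged length (5721). Per kilobase of merged exons, a length chosen after the data were seen, Ikzf1 lay above Ikzf3 in Cry2flox, at 0.577 against 0.387. The ratio of Ikzf3 to Ikzf1 there was 0.670 (0.466 to 0.965), against 1.16 by FPKM. In Cry2scko Ikzf3 stayed above Ikzf1, by 2.32-fold (1.75 to 3.11) in place of 4.01-fold. The length of a gene is the same in both libraries, so it does not enter the ratios between them.

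**Figure D4:**
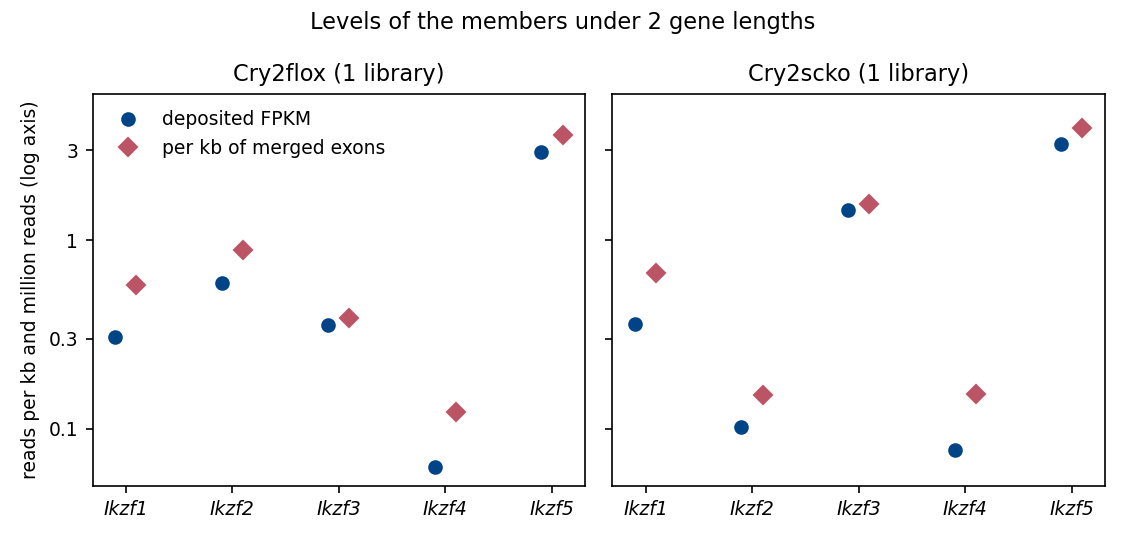
Level of each member in the Cry2flox library (left) and the Cry2scko library (right) on a log axis, as deposited FPKM (circles) and as CPM per kilobase of merged exons (diamonds). In Cry2flox Ikzf1 lies below Ikzf3 by FPKM (0.307 and 0.356) and above it per merged length (0.577 and 0.387). Ikzf5, which may include reads of Pstk, leads in both panels.

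Genes that mark lymphocytes were higher in Cry2scko alongside Ikzf3. Of 12 B lymphocyte genes 11 were called higher and 0 lower, against 3.37% and 1.51% of all tested genes, and their median log2 ratio was 1.53 against -0.00 over the 13898 genes averaging 0.5 CPM or more. Bank1, a scaffold of B cell receptor signalling, was 4.20-fold higher and Cd79b, a chain of that receptor, 4.11-fold, the largest folds of the list. The other B lymphocyte genes ran from 3.32-fold (Cr2) down to 1.92-fold (Fcrla), all below the 3.97-fold of Ikzf3. Of 15 T lymphocyte genes 9 were higher and 6 neither, with a median of 1.07. Cd5, a surface receptor of T cells and some B cells, was 3.95-fold higher on 10 and 36 reads. Cd8b1, a chain of the CD8 coreceptor, was 3.82-fold higher on 16 and 55 reads. The summed level of the B list was 70.8 CPM in Cry2flox and 189 CPM in Cry2scko, and that of the T list 32.96 and 62.0 CPM. Ikzf1, at a log2 ratio of 0.21, lay below each of the 27 genes of both lists, of which the lowest, Cd28, was at 0.25. The interval of Ikzf1 (-0.32 to 0.73) held the ratios of Cd28, Cd247 (0.30), Cd4 (0.43) and Cd3d (0.69). Intervals of others, such as Trac (0.34 to 1.49), overlapped it. The order of Ikzf1 against these genes is not resolved beyond counting error. For every 100 reads of these 27 genes there were 3.23 reads of Ikzf1 in Cry2flox (2.47 to 4.15) and 1.54 in Cry2scko (1.19 to 1.98). For Ikzf3 there were 3.28 (2.52 to 4.21) and 5.43 (4.73 to 6.21). Reads of the 27 genes summed to 1949 in Cry2flox and 4144 in Cry2scko, so a gene of unchanged level falls by this measure. Ikzf1 itself had 63 and 64 reads. Ikzf4 went from 0.718 to 0.362 and Ikzf5, which may include reads of Pstk, from 20.1 to 8.98. The part of lymphocyte number in the level of Ikzf1 or Ikzf3 was not tested.

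Regulatory T cells, the cells in which Helios is best known, were poorly covered. Of 8 such genes 4 could be tested, and 2 were higher (3.37% of all tested genes were) and 2 neither. The median log2 ratio of the 5 genes averaging 0.5 CPM or more was 1.02. The 2 calls went to 1 with FPKM or with 5 added reads, and to 0 at a minimum of 5 CPM. Tnfrsf4, which encodes the costimulatory receptor OX40, was 2.61-fold higher on 18 and 42 reads, and Icos, another costimulatory receptor, 2.03-fold on 16 and 29 reads. Foxp3, the defining factor of the lineage, had 11 reads in Cry2flox and 5 in Cry2scko, below the minimum for a call. Its log2 ratio of -0.88 had an interval from -2.83 to 0.69. By FPKM, Ikzf2 was at 0.596 and Foxp3 at 0.0867 in Cry2flox, and at 0.102 and 0.0454 in Cry2scko. The summed level of the list was 12.6 and 17.6 CPM. Gpr83 had 5 and 0 reads, and 0 reads allow up to 0.181 CPM in Cry2scko.

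Fibroblast and satellite cell genes had medians below 0, and 1.51% of all tested genes were called lower. Fibroblast genes had a median log2 ratio of -0.41 with 1 of 8 lower, Col1a1 at 2.18-fold. Satellite cell genes had a median of -0.31 with 2 of 8 lower. These were Spry1, an inhibitor of growth factor signalling, 22.7-fold lower on 503 and 19 reads, and the calcitonin receptor gene Calcr, 2.22-fold lower on 36 and 14 reads. The log2 ratio of Spry1, -4.51, was below that of Ikzf2. The 2 satellite cell calls went to 1 with FPKM, with 5 added reads, at a minimum of 5 CPM and without genes that share exon bases. The list medians were 0.15 for macrophages, with 0 of 9 tested genes called, and 0.13 for endothelium, with 0 of 8. Of all tested genes 4.88% were called in either direction, so lists this short hold few calls or none at that share. NK cell genes had 1 of 7 at a testable level, Nkg7, at 0.81 (-0.14 to 1.83) and not called. Below that level, Klrd1 was at 1.53 (0.17 to 3.24) on 6 and 16 reads and Klrk1 at 1.85 (0.45 to 3.74) on 5 and 17 reads, and the median of these 3 genes was 1.53. Prf1, which encodes perforin, had 0 reads in both libraries, and Ncr1, a receptor that defines NK cells, had 0 and 4. Their summed levels in Cry2flox and Cry2scko were 1661 and 1065 CPM for fibroblast, 107 and 76.4 CPM for satellite cell, 116 and 130 CPM for macrophage, 486 and 478 CPM for endothelial and 2.02 and 4.35 CPM for NK cell genes. The part of cell composition in the Ikzf2 value was not tested.

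Transcription factors that work beside the Ikaros family in lymphocytes differed among themselves. Of 27 listed 24 could be tested, and 9 were higher, 1 lower and 14 neither, against 3.37% higher and 1.51% lower of all tested genes. Their median log2 ratio was 0.90, while their summed level was 339 CPM in Cry2flox and 342 CPM in Cry2scko. Spib, a factor of B cells, was 3.34-fold higher on 81 and 239 reads. Bcl11a, needed early in the B lineage, was 3.29-fold higher on 30 and 88 reads, and Pax5, which fixes B cell identity, 2.88-fold on 133 and 338 reads. The lower gene was Bach2, a repressor that holds lymphocytes from terminal differentiation, 3.44-fold lower on 99 against 25 reads (log2 ratio -1.78, -2.50 to -1.16). Bach2 thus lay on the side of Ikzf2, opposite to Ikzf3. Of the 9 higher calls and 1 lower call of this list, 4 and 0 were left at a minimum of 5 CPM. Without genes that share exon bases 4 and 0 were left too, so Bach2 is not among the calls in either setting. Some abundant factors, also expressed outside lymphocytes, had lower levels in Cry2scko short of the 2-fold threshold. These were Bcl6 at -0.60 (-0.70 to -0.50) on 2381 and 1385 reads, Tcf4 at -0.53 (-0.68 to -0.39) on 1060 and 645 reads, and Tcf3 at -0.29 (-0.55 to -0.03) on 294 and 212 reads. Ebf1, which B cells share with adipocyte and stromal cells, was at 0.11 on 383 and 365 reads.

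Among genes for the machinery through which Ikaros proteins act none was called. Only 4.88% of all tested genes were called, so lists this short hold few calls or none at that share. Of 20 genes for corepressor and remodelling partners 0 were called, and their median log2 ratio was 0.05. Chd4, the remodelling ATPase of the NuRD complex, was at 0.08 (-0.01 to 0.17) on 2129 and 1985 reads. The corepressor Ctbp1 was at 0.16 on 1618 and 1597 reads. Gatad2b, a structural NuRD subunit, lay closest to the threshold at -0.94 (-1.22 to -0.67), on 356 and 163 reads. Of 11 genes for enzymes that modify Ikaros proteins 0 were called, with a median of -0.06. Crbn, the cereblon receptor through which thalidomide-type drugs direct Ikaros and Aiolos to degradation, was at -0.02 on 488 and 425 reads. Csnk2a1, the catalytic subunit of casein kinase 2 that phosphorylates Ikaros, was at 0.01 on 1544 and 1374 reads.

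Genes reported as Ikaros targets in lymphocytes were not called or too rare to test. Of 12 listed 6 could be tested and 0 were called, with a median log2 ratio of 0.11. At the 4.88% called among all tested genes, a list of 6 would hold few calls or none. Myc was at -0.01 (-0.49 to 0.47) on 80 and 70 reads, and Blnk, an adaptor of the B cell receptor, at 0.54 (0.15 to 0.93) on 100 and 128 reads. The recombinase gene Rag1 had 0 reads in Cry2flox and 9 in Cry2scko, its partner Rag2 had 0 and 2, and Dntt, which encodes terminal transferase, had 0 and 3. Igll1, the surrogate light chain of pre-B cells, had 0 and 5 reads, and Vpreb1, its partner, had 2 and 0. Il2 had 0 in both. With no minimum CPM, 2 genes of this list were called higher, Rag1 and Igll1. In Cry2flox 0 reads allow up to 0.160 CPM.

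**Figure D5:**
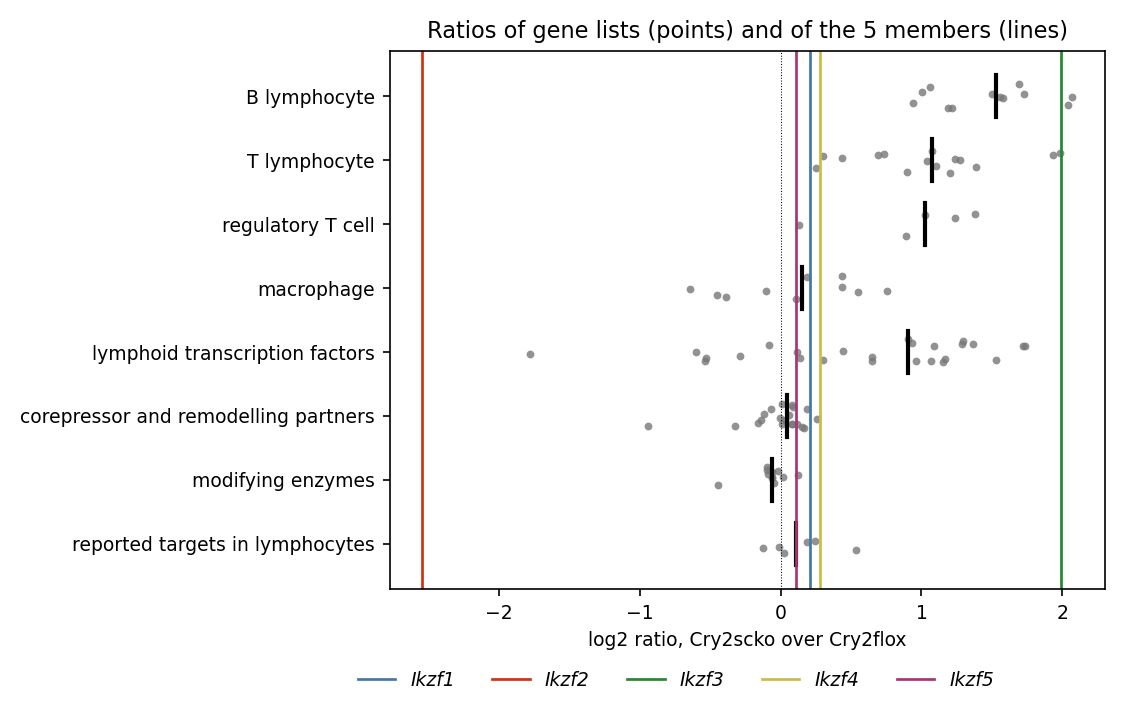
Log2 ratio of Cry2scko over Cry2flox for genes averaging 0.5 CPM or more in the lists of B lymphocyte, T lymphocyte, regulatory T cell, macrophage, lymphoid factor, corepressor, modifying enzyme and reported target genes (points, black bars at the median) and for the 5 members (vertical lines). Ikzf3 at 1.99 lies at the upper end of the B and T lymphocyte lists. Ikzf1 at 0.21 lies below all points of both, though its interval (-0.32 to 0.73, not drawn) holds those of Cd28, Cd247, Cd4 and Cd3d. Ikzf2 at -2.55 lies below the points of these 8 lists, and Spry1 and Zfp74, of lists not drawn, are lower still.

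Other genes with a zinc finger name, picked by symbol and not by structure, give a spread for comparison. Of 391 protein-coding genes named Zfp with a number 311 could be tested, and 5 (1.61%) were higher and 6 (1.93%) lower, against 3.37% and 1.51% of all tested genes, with a median log2 ratio of -0.04. Zfp74 was the lowest of those called, 7.88-fold lower on 156 and 17 reads, and Zfp831 the highest, 3.99-fold higher on 17 and 61 reads. The ratios of Ikzf2 and Ikzf3 thus lay within the range of called Zfp genes on both sides.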

How the data were processed

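Libraries of total RNA were made with a Vazyme VAHTS kit, per the labels' protocols. CASAVA, HISAT2 2.0.4, StringTie 1.3.0 and GRCm38 are named in the submitters' processing notes. The read counter, annotation release and strand setting are not given in the sources used here. The authors deposited whole-number read counts per gene, not normalised, and FPKM values in a separate file for each library, per the file headers. GENCODE M21 (GRCm38) named 34267 of the 34745 genes.

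Counts were scaled with TMM (edgeR 4.0.16, R 4.3.3), with factors of 0.993 and 1.01. Ratios used 0.5 added reads and exact Clopper-Pearson intervals, and levels used exact Poisson intervals. A CPM of 1 is about 18.8 reads in Cry2flox and 16.5 in Cry2scko, and a limit for 0 reads is that of 3 reads. Tools were Python 3.11.15, scipy 1.17.1, Biopython 1.88 and bedtools 2.31.1. The procedure was run on simulated data that held counting error only, so that run says nothing of differences between animals. Other settings tried were size factors of DESeq2 1.42.0, total counts, other filters, thresholds and added reads, and the FPKM values.

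The members and lists were chosen with earlier results of these data known. Named genes are the members, Cry2, genes within 5 kb of a member or sharing its exons, and up to 4 per list, called genes with the largest fold first and then the most abundant. Not all of these are described. Others, such as Foxp3, Ebf1, Bcl6, Tcf4, Tcf3, Klrd1, Klrk1, Gatad2b and those at few reads, were chosen after their values were seen. So were Cd28, Cd247, Cd4, Cd3d, Trac and Fcrla. No library was left out.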

Additional observations from a re-analysis of the deposited data

How the results depend on the processing

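No paired analysis was possible because each genotype has 1 library. All 5 members kept the sign of their ratio under 5 alternatives of scaling, unit and added reads. These alternatives reuse the same libraries. The intervals of Ikzf1, Ikzf4 and Ikzf5 held a ratio of 1, so a kept sign does not resolve their direction. Ikzf2 ranged from -2.55 to -1.78 (log2), Ikzf3 from 1.76 to 2.02, Ikzf1 from 0.17 to 0.23, Ikzf4 from 0.12 to 0.31 and Ikzf5 from 0.10 to 0.14. The value of -1.78 came from FPKM with 0.1 added, an amount as large as the FPKM of Ikzf2 in Cry2scko. With that setting 116 genes were called lower against 194. With all genes kept whatever their counts, 789 were higher and 396 lower, against 432 and 194. A minimum of 5 CPM gave 175 and 76, with a 1.5-fold threshold 842 and 558, and without genes that share exon bases, Ikzf2, Ikzf4 and Ikzf5 among them, 270 and 121. The median of the muscle fibre list, -0.02, turned to 0.00265 with total counts, 0.011 with total counts without the most abundant genes and 0.00265 with FPKM. At a minimum of 5 CPM, the T lymphocyte genes called higher went from 9 to 1 and the lymphoid factors from 9 to 4, because fewer could be tested. Of 377 list values under the alternatives, 344 stayed within 1.5 times or within the counting interval. Depth limits Ikzf4 most, at 14 and 15 reads.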

Other observations

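Some neighbours of the members had other ratios than the members. Acadsb, which encodes a mitochondrial acyl-CoA dehydrogenase, starts 80 bases from Ikzf5 on the other strand. Its counts were 1981 for Cry2flox against 898 for Cry2scko (log2 ratio -0.96, -1.07 to -0.84), while Ikzf5 was at 0.11. Around Ikzf3, Erbb2 at 0.25 (67 and 70 reads), Ormdl3 at -0.09 (499 and 413 reads) and the muscle gene Tcap at -0.42 (33815 and 22206 reads) were not called, and Pgap3, a gene of GPI anchor remodelling, was lower at -1.48 on 58 and 18 reads. These genes around Ikzf3 lie within 100 kb of it and were chosen after their values were seen. No gene other than Ikzf2 within 100 kb of it had more than 1 read in either library.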
